A study of Maylandia zebra with 2 samples.

Results

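*ccl25a* (ENSMZEG00005024396) and *ccl25b* (ENSMZEG00005014587) are the 2 features named as copies of the CC chemokine gene *ccl25* among the 28622 features measured in nuclei of the oral lamina of *Maylandia zebra*, a cichlid fish of Lake Malawi. The pair was chosen by measured values, namely its summed counts per class and per cluster, so these levels describe the pair and carry no test. The study took soft tissue next to the replacement teeth from the upper and the lower jaw, 1 library each, with no treatment, strain or age given in the labels. Both jaws stand in 1 matrix, and the barcode suffixes 1 and 2 are not tied to a jaw, so all nuclei are described as 1 pooled sample. Nuclei were sorted by DAPI as singlets, and each group named here is a class (the cell type name) or a cluster in the metadata of the authors.

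CCL25 is a small secreted protein that attracts white blood cells bearing the receptor CCR9, while the scavenger receptor ACKR4 takes it up without guiding migration. In mammals it is best known from epithelial cells of the thymus and the small intestine, where it draws in thymocytes and gut-homing lymphocytes. In zebrafish *ccl25a* is a gene of the thymic epithelium. Teleost fish carry a pair of copies, which is why the names end in a and b.

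The kept nuclei numbered 1296 and held 1423040 UMIs, each of which stands for 1 captured RNA molecule, at 367 to 5326 per nucleus (median 832.5). The medians were 753 UMIs over the 754 nuclei of suffix 1 and 919 over the 542 of suffix 2, and 1 barcode sequence was found in both sets. Epithelial markers (11 features) summed to 21851 CPM (UMIs per 1000000 of the group's total) in the Epithelial class, against 6611 in the Immune, 5306 in the Pigmented and 7659.6 in the Mesenchymal class. Mesenchyme markers (9 features) summed to 5962 CPM in the Mesenchymal class, against 1072 in the Epithelial, 402 in the Immune and 449 in the Pigmented class. Of these, 3 had most of their UMIs in the Epithelial class, *postnb* 440 of 513, *col1a2* 302 of 459 and *col1a1a* 215 of 397. That class held 918679 of the 1423040 UMIs. By CPM against all other nuclei, *postnb* was higher there, with a ratio of 3.31 (2.58–4.30). The ratio was 1.06 (0.868–1.29) for *col1a2*, and *col1a1a* was lower, at 0.649 (0.530–0.795). All intervals are exact 95% intervals and cover counting error only.

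*ccl25a* had 326 UMIs in 177 nuclei and *ccl25b* had 921 UMIs in 391 nuclei. In the Epithelial class *ccl25a* stood at 320.0 CPM (284–359) and in all other nuclei at 63.4 CPM (43.4–89.6), a ratio of 5.04 (3.50–7.51). *ccl25b* stood at 836 CPM (778–897) in the Epithelial class and at 303 CPM (257–355) elsewhere, a ratio of 2.76 (2.31–3.30). Both copies were thus higher in the epithelium, *ccl25a* by the larger ratio. Both passed the minimum of 10 UMIs, as did 12230 features in all, of which 12.4% had a ratio of 2 or more in the Epithelial class. Since this contrast chose the pair, nothing is read from that share.

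The excess was not spread over the whole epithelium. *ccl25a* reached 443 CPM (384–508) in cluster 0, 368 CPM (240.3–539) in cluster 7 and 356 CPM (266–466) in cluster 1, 3 epithelial clusters whose intervals overlap. It then dropped to 67.0 CPM (26.9–138) in epithelial cluster 3 and to 36.7 CPM (11.9–85.6) in epithelial cluster 4. These values lay among or below those of the 7 clusters outside the epithelium, which ran from 41.8 CPM (16.8–86.1) in Immune cluster 2 to 81.7 CPM (37.3–155) in the Mesenchymal class. From the fourth cluster to the last, each interval overlapped that of its neighbour in the order. The intervals of clusters 10 (Mature TB) and 11 (Immature TB) reached 287 and 273 CPM, and thus also overlapped those of clusters 1 and 7. The name epithelial therefore described *ccl25a* in clusters 0, 1 and 7, while clusters 3 and 4 were not told apart from non-epithelial nuclei at this depth.

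*ccl25b* showed another order. It stood at 1118 CPM (885–1393) in cluster 7, 1069.5 CPM (977–1168) in cluster 0 and 868 CPM (724–1033) in cluster 1. The fourth place went to the Mesenchymal class with 717 CPM (568–894), whose interval overlapped that of cluster 1. Epithelial cluster 3 followed at 440.3 CPM (322–587) and the Immature TB class at 302 CPM (131–596). Epithelial cluster 4, at 169 CPM (107–253), lay below Immune clusters 9, 8 and 2 at 276, 227 and 197 CPM. The Pigmented class was at 142 CPM (75.7–243). In the Mature TB class, whose TB in the authors' labels is read here as taste bud, 0 of 25210 UMIs were *ccl25b*. This allows up to 119 CPM by a floor of 3 UMIs and up to 146 CPM by the exact interval. Each neighbour in this order overlapped the next. For *ccl25b* the data go against the name epithelial as a full description, since the Mesenchymal class was not told apart from epithelial cluster 1. Of the 79 *ccl25b* UMIs of the Mesenchymal class, 18 came from 1 nucleus, without which the class stood at 565 CPM.

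**Figure D1:**
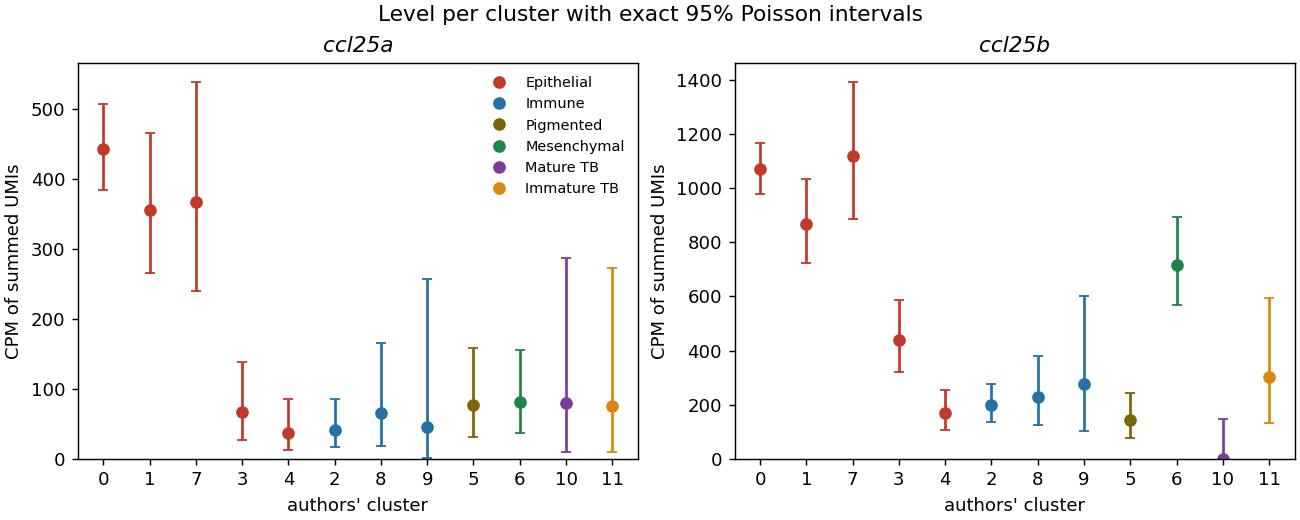
Level of each copy (vertical axis, CPM of summed UMIs) in the 12 clusters of the authors (horizontal axis, coloured by class), with exact 95% Poisson intervals as bars. Clusters 0, 1 and 7 have the highest values of *ccl25a*, though the wide intervals of taste bud clusters 10 and 11 overlap those of clusters 1 and 7. For *ccl25b* the interval of Mesenchymal cluster 6, at 717 CPM, overlaps that of cluster 1 but lies below that of cluster 0.

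Clusters 0, 1 and 7 are the part of the epithelium rich in genes that anchor cells to the basement membrane, and clusters 3 and 4 the part rich in genes of the upper layers. Set against clusters 3 and 4, *ccl25a* was at 416 CPM against 49.8 CPM, a ratio of 8.35 (4.70–16.3). *ccl25b* was at 1031 CPM against 287 CPM, a ratio of 3.60 (2.81–4.68). Of the 9837 features with at least 10 UMIs in these clusters, 15.8% had a ratio of 2 or more and 15.9% were lower by as much, and nothing is read from these shares either, since the clusters come from expression. The list of basal genes had 11 members with that many UMIs, of which 7 were higher there by 2-fold or more and 0 lower, with a median log2 ratio of 1.16 against −0.05 over the 9837 features. Among its members *itga6b* and *itgb4*, which code for the integrin pair of hemidesmosomes, had ratios of 6.82 (5.75–8.14) and 6.20 (4.94–7.88). The keratin gene *krt15* had a ratio of 1.76 (1.63–1.91), and *plecb*, which codes for the linker protein plectin, one of 3.05 (2.80–3.33). The other plectin gene on the list, *pleca*, went the other way, at 0.572 (0.414–0.794). Of the 10 measured genes on the upper layer list, 0 were higher by 2-fold or more and 5 lower. Among these, *perp*, a desmosome gene, was at 0.407 (0.367–0.452). *ccl25a* thus went with the integrin genes in size, whereas *ccl25b* lay nearer to *plecb*.

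**Figure D2:**
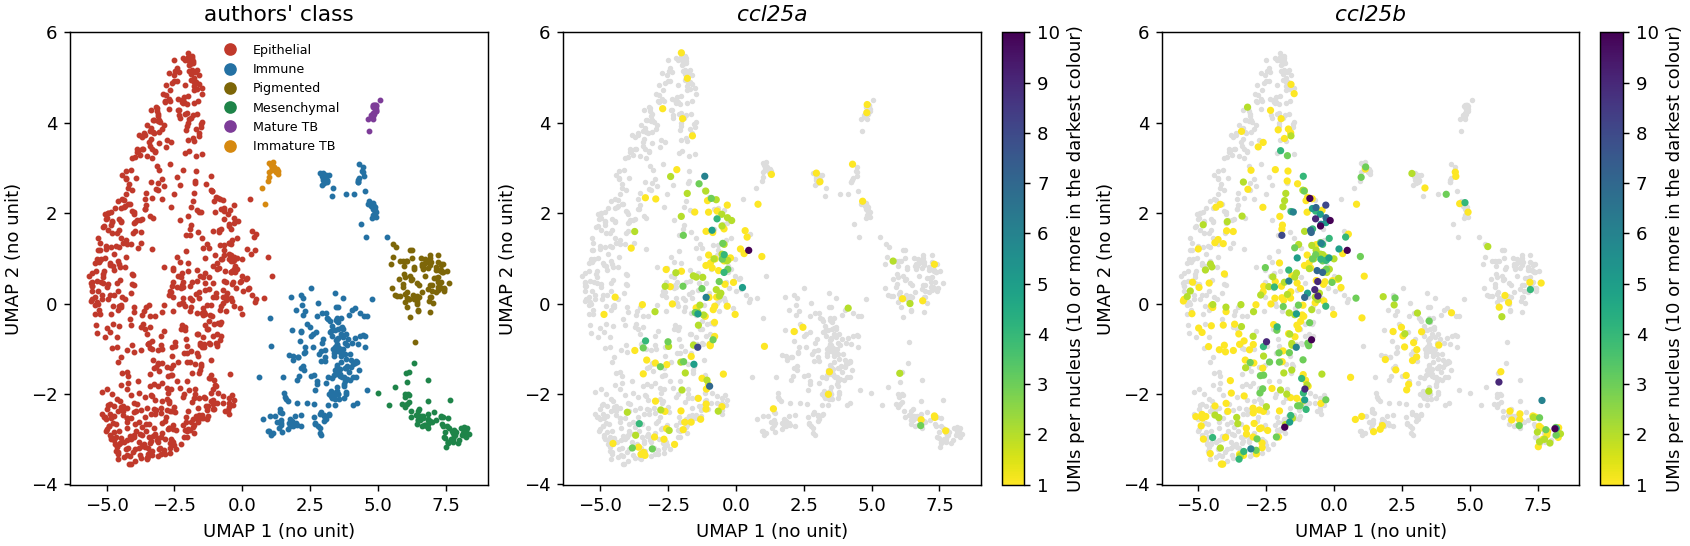
Kept nuclei on the authors' UMAP axes, which have no unit, coloured by the authors' class (left) and by UMIs per nucleus of *ccl25a* (middle) and *ccl25b* (right), with nuclei at 0 in grey. Nuclei with several UMIs of either copy lie on the right edge of the epithelial field, and *ccl25b* also marks nuclei of the Mesenchymal group, 1 of them with 18 UMIs.

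Within a cluster the UMIs were uneven. In cluster 0, 93 of 234 nuclei carried *ccl25a*, 41 of them with 1 UMI and 8 with 5 or more, and the highest held 17 of the 204 UMIs. In the same cluster 160 nuclei carried *ccl25b*, 60 of them with 1 UMI and 31 with 5 or more, and the highest held 18. In cluster 1, 30 of 222 nuclei carried *ccl25a* and 73 carried *ccl25b*, with at most 4 and 9 UMIs. Without its highest nucleus cluster 0 stood at 410.3 CPM for *ccl25a* and 1036 CPM for *ccl25b*, so the level did not rest on 1 nucleus.

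Cluster 0 is deep: its median nucleus held 1703 UMIs, that of cluster 1 632 and that of cluster 3 565. Depth raises the share of nuclei with a UMI. When the 234 nuclei of cluster 0 were split by depth into 3 sets of 78, nuclei with *ccl25a* made up 26.9% (17.5–38.2) of the shallowest set, 34.6% (24.2–46.2) of the middle and 57.7% (46.0–68.8) of the deepest. The CPM over the same sets was 558 (410.2–742), 315 (227–426) and 473 (390.1–567), which follows no such order. For *ccl25b* the sets stood at 1033 CPM (828–1275), 779.6 CPM (637–945) and 1241 CPM (1105–1389). Shares were therefore also taken with every nucleus thinned to 500 UMIs, which left out 114 Epithelial, 43 Immune, 17 Pigmented and 8 Mesenchymal nuclei.

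With all UMIs, *ccl25a* was seen in 26.9% (23.1–30.9) of the nuclei of clusters 0, 1 and 7 and in 3.83% (1.93–6.75) of those of clusters 3 and 4. The Immune class, which pools clusters 2, 8 and 9, had it in 4.14% (2.08–7.28). The median depths of these groups were 976, 649 and 750.5 UMIs, in that order. At 500 UMIs the shares were 14.7% (11.6–18.2), 3.69% (1.60–7.13) and 2.69% (0.994–5.76). The *ccl25a* share of clusters 3 and 4 thus overlapped that of Immune nuclei at both depths. *ccl25b* was seen in 49.9% (45.5–54.3), 17.8% (13.5–22.7) and 14.3% (10.3–19.1) of these groups, and at 500 UMIs in 32.5% (28.3–36.9), 12.9% (8.75–18.1) and 8.07% (4.85–12.5). Mesenchymal nuclei had *ccl25b* in 35.3% (25.2–46.4), and in 24.7% (15.6–35.8) at 500 UMIs, above the Immune share in both cases. Their *ccl25a* share at 500 UMIs was 2.60% (0.316–9.07), like that of Immune nuclei. Within the upper layers, cluster 3 kept *ccl25b* in 22.6% (15.1–31.8) of nuclei at 500 UMIs and cluster 4 in 3.60% (0.990–8.97).

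**Figure D3:**
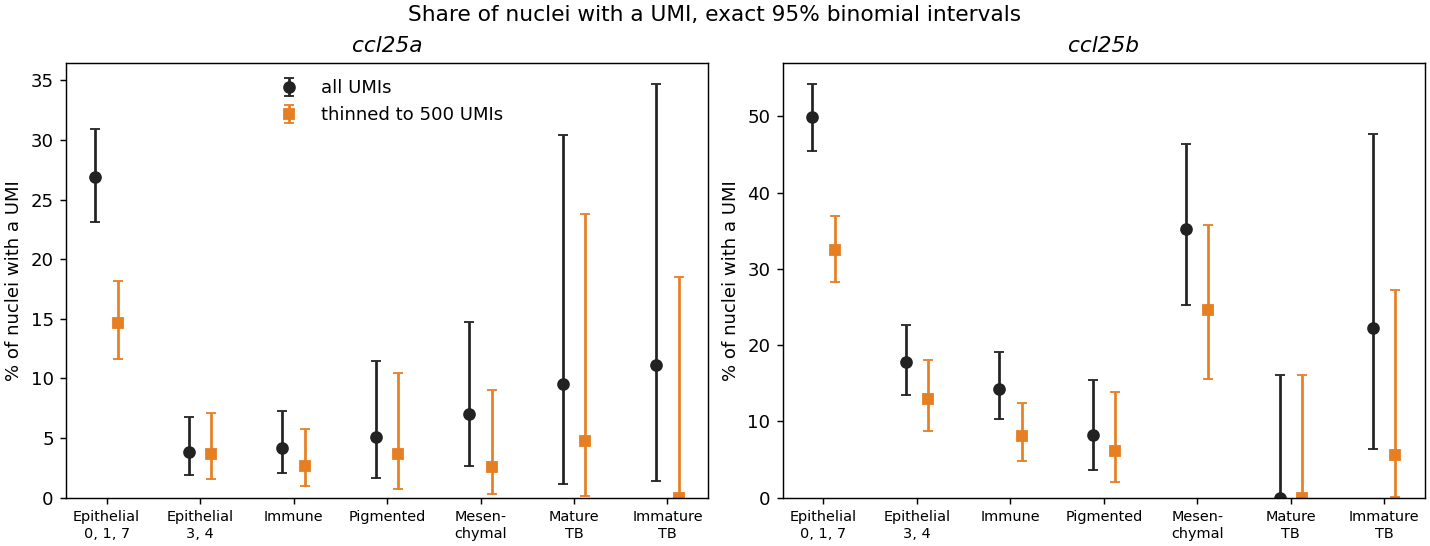
Percent of nuclei with at least 1 UMI of each copy (vertical axis) in 2 sets of epithelial clusters and in the 5 other classes (horizontal axis), with all UMIs (circles) and after thinning to 500 UMIs (squares), and exact 95% binomial intervals as bars. For *ccl25a* the set of clusters 0, 1 and 7 is highest, at 14.7% of thinned nuclei, though the wide taste bud intervals overlap its own. For *ccl25b* the interval of the Mesenchymal class, at 24.7% of thinned nuclei, overlaps that of this set.

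The balance between the copies differed between groups. *ccl25a* made up 28.7% (25.9–31.7) of the UMIs of the pair in clusters 0, 1 and 7. It made up 14.8% (7.90–24.5) in clusters 3 and 4 and 10.2% (4.78–18.5) in the Mesenchymal class, both intervals below that of clusters 0, 1 and 7. In the Immune, Pigmented and taste bud nuclei together the share was 23.7% (15.7–33.4), an interval that overlaps that of clusters 0, 1 and 7. Across the 12 clusters the copies had a Pearson r of 0.54 and a Spearman rho of 0.64 on log2(CPM + 10), a description of clusters that share libraries and differ in depth.

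*krt5*, a keratin gene of the epithelium, served as a second epithelial RNA and was seen in 79.3% of the nuclei outside the Epithelial class. The part of free RNA in the values of those nuclei was not tested. Clusters 0, 1 and 7 held 2.81, 2.28 and 2.96 *ccl25a* UMIs per 100 *krt5* UMIs. Clusters 3 and 4 held 0.464 (0.186–0.959) and 0.555 (0.180–1.30), although the *krt5* level of cluster 3, 14424 CPM, was near the 15563.5 CPM of cluster 1. For *ccl25b* the values were 6.79 (6.18–7.44) in cluster 0, 3.05 (2.22–4.09) in cluster 3 and 2.55 (1.61–3.85) in cluster 4. The Immune class held 5.04 (3.75–6.65) and the Pigmented class 4.26 (2.24–7.40), and both intervals include the 5.99 of the Epithelial class as a whole. For *ccl25a* the Immune class held 1.14 (0.588–2.00), below the 2.29 (2.04–2.57) of the Epithelial class. The Pigmented class held 2.30 (0.915–4.79) *ccl25a* UMIs, an interval that includes the Epithelial value. The Mesenchymal class held 14.8 (11.5–18.7) *ccl25b* UMIs per 100 *krt5* UMIs. Its interval lay above those of the epithelial clusters, but only narrowly above that of cluster 7, at 9.01 (7.06–11.3). Of the 79 *ccl25b* UMIs behind the Mesenchymal value, 18 came from 1 nucleus with 1 *krt5* UMI. The value without that nucleus was not taken, so whether the intervals would stay apart without it was not tested.

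**Figure D4:**
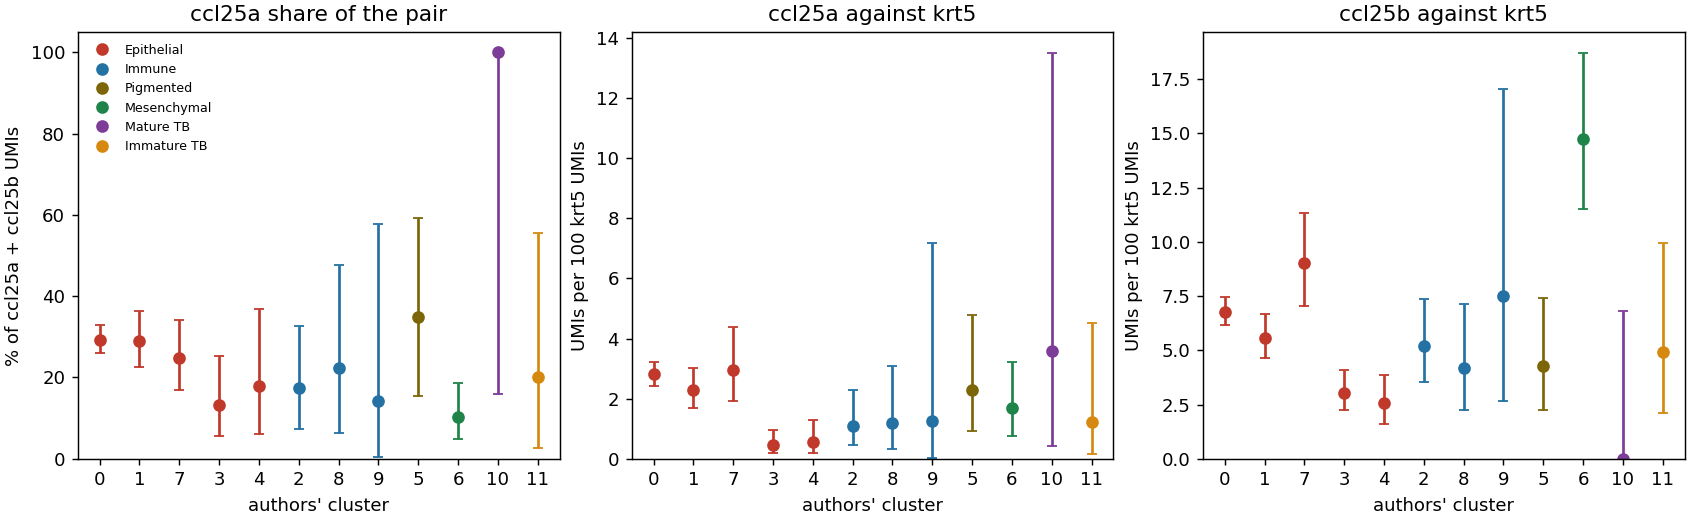
For the 12 clusters (horizontal axis), the percent of the pair's UMIs that were *ccl25a* (left), and the UMIs of *ccl25a* (middle) and *ccl25b* (right) per 100 *krt5* UMIs, with exact 95% intervals as bars. Clusters 3 and 4 lie below clusters 0, 1 and 7 in the middle panel, and the Mesenchymal cluster 6, at 14.8, lies highest in the right panel. In cluster 6, 18 of the 79 *ccl25b* UMIs came from 1 nucleus.

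In Mesenchymal nuclei, which make the connective tissue under the epithelium, *ccl25b* had 79 UMIs in 30 of 85 nuclei. Of these nuclei 15 carried 1 UMI, 6 carried 2, 5 carried 3, and the remaining nuclei held 4, 6, 9 and 18. Against the Immune, Pigmented and taste bud nuclei, at 188 CPM, the ratio was 3.82 (2.75–5.32), and *ccl25a* in the same contrast had a ratio of 1.40 (0.570–3.14). Of the 8294 features with at least 10 UMIs in these groups, 14.5% had a ratio of 2 or more in the Mesenchymal class. Suffix 1 had 47 *ccl25b* UMIs at 643 CPM (472–855) and suffix 2 had 32 at 864 CPM (591–1219). The nucleus of 18 UMIs belongs to suffix 2, which without it stood at 403 CPM. Without that nucleus the whole class stood at 565 CPM and the ratio at 3.01 (2.11–4.28).

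Epithelial RNA moved with these nuclei in part. The 30 nuclei with *ccl25b* had epithelial markers at 9633 CPM (8797–10528) with 4 of 11 at 0, against 5986 CPM (5381–6641) with 3 of 11 at 0 in the 55 nuclei without it, at median depths of 1335 and 970.0 UMIs. Much of this was 1 gene, since *krt5* gave 328 of the 487 epithelial marker UMIs with *ccl25b* and 207 of the 357 without. *krt5* alone was at 6488 and 3471 CPM. Mesenchyme markers stood at 6686 CPM (5992–7438) and 5349 CPM (4778–5970), with 0 of 9 at 0 in both sets of nuclei. In the 17 Mesenchymal nuclei with 0 *krt5* UMIs *ccl25b* was at 931 CPM (521–1535) on 15 UMIs in 7 nuclei. With 1 or 2 *krt5* UMIs it was at 801 CPM (513–1192), but 18 of these 24 UMIs came from 1 nucleus, and without it the value was 217 CPM (79.6–472). With 3 or more *krt5* UMIs it was at 624 CPM (446–849). In Immune nuclei the same 3 strata held 165, 190.3 and 237 CPM. The nucleus of 18 UMIs had 1 *krt5* UMI, 2 epithelial marker UMIs and 27 mesenchyme marker UMIs of 2286 in all, and it was not among the 18 doublet calls of Scrublet.

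Nuclei with one copy often held the other. In the Epithelial class 151 nuclei carried *ccl25a*, 311 carried *ccl25b* and 102 carried both, which is 67.5% (59.5–74.9) of the first set and 32.8% (27.6–38.3) of the second. Among Epithelial nuclei without *ccl25a*, 31.8% (28.3–35.5) carried *ccl25b*. Deep nuclei hold both more often, since the median was 1457 UMIs with *ccl25a* and 751 without. At 500 UMIs the shares were 41.0% (30.0–52.7) with *ccl25a* and 24.5% (21.2–28.1) without it.

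The gap was also looked at within clusters. In cluster 0 at 500 UMIs, 19 of 35 nuclei with *ccl25a* carried *ccl25b*, 54.3% (36.6–71.2), against 36.2% (29.5–43.3) of those without. In cluster 1 it was 39.1% (19.7–61.5) against 26.5% (19.7–34.1), and in cluster 7 33.3% (9.92–65.1) against 18.9% (9.44–32.0). The share was higher beside *ccl25a* in each of the 3 clusters, but the intervals overlapped in each. In Mesenchymal nuclei with all UMIs, 4 of 6 with *ccl25a* and 26 of 79 without it carried *ccl25b*. Outside the Epithelial and Mesenchymal classes 2 nuclei carried both, of 20 with *ccl25a* and 50 with *ccl25b*.

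The deposited score named cyto, which ranks the nuclei and whose rule is not given in the sources used here, was split into 4 ranges of 173 or 174 Epithelial nuclei at 500 UMIs. *ccl25a* was seen in 5.17% (2.39–9.59) of the lowest range, 17.3% (12.02–23.8) of the second, 12.7% (8.14–18.6) of the third and 9.77% (5.80–15.2) of the highest. *ccl25b* was seen in 10.3% (6.25–15.9), 32.4% (25.5–39.9), 25.4% (19.1–32.6) and 37.4% (30.2–45.0). The lowest range had the lowest share of both, and it held 32 nuclei of clusters 0, 1 and 7 against 114, 159 and 172 in the others. The second and the highest range overlapped for both copies.

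The other genes of the chemokine system give the setting. The list held 28 features, of which 8 had at least 10 UMIs, 12 had fewer and 8 had 0. Among the 8, 2 were higher in the Epithelial class by 2-fold or more, namely the pair itself, and 4 were lower by as much, beside 18.8% among all 12230 features. The median log2 ratio over the 8 was −0.74 against −0.06 over all features, and nothing is read from it. The pair made up 1247 of the 1335 UMIs of the 6 ligand features, 93.4% as counts not scaled by transcript length. *cxcl14*, a ligand gene of epithelia, had 72 UMIs, of which 15 lay in the 18 Immature TB nuclei at 567 CPM (317–935) and 46 in the Epithelial class at 50.1 CPM (36.7–66.8). Within the epithelium *cxcl14* had 44 UMIs in clusters 0, 1 and 7 and 2 in clusters 3 and 4, a ratio of 7.82 (2.04–66.6). *cxcl12a*, the ligand gene for CXCR4, had 15 UMIs, 10 of them in the Epithelial class.

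The 4 receptor genes with at least 10 UMIs had higher values in the Immune and Pigmented classes than in the Epithelial class. For *ccr9b* the Immune and Epithelial intervals overlapped, so those 2 classes were not told apart. Lymphocyte markers (9 features) summed to 4136 CPM (3729–4574) in the Pigmented class. They stood at 4476 CPM (4218–4746) in the Immune and 411 CPM in the Epithelial class. Whether the receptor UMIs of the Pigmented class lay in nuclei with lymphocyte markers was not tested. *ccr9b*, a gene for the receptor that answers CCL25, had 20 UMIs in 17 nuclei, with 8 in the Epithelial class at 8.71 CPM (3.76–17.2). It had 7 UMIs in the Immune class at 27.9 CPM (11.2–57.4) and 5 in the Pigmented class at 54.7 CPM (17.8–128). The ratio of the Epithelial class to all other nuclei was 0.366 (0.130–0.974). Among the features measured, 0 carried the name of the other copy, *ccr9a*. *ccr10*, which codes for a receptor of epithelial chemokines in mammals, had 27 of its 40 UMIs in the Immune class at 108 CPM (70.9–156), 25 of them in cluster 2. *ccr7*, the lymph node homing receptor gene, had 29 of 50 there at 115 CPM (77.3–166). *CXCR4*, the receptor gene for CXCL12, had 9 of 25 in the Immune and 9 in the Pigmented class. The scavenger genes *ackr4a* and *ackr4b* had 4 and 2 UMIs, too few to place.

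**Figure D5:**
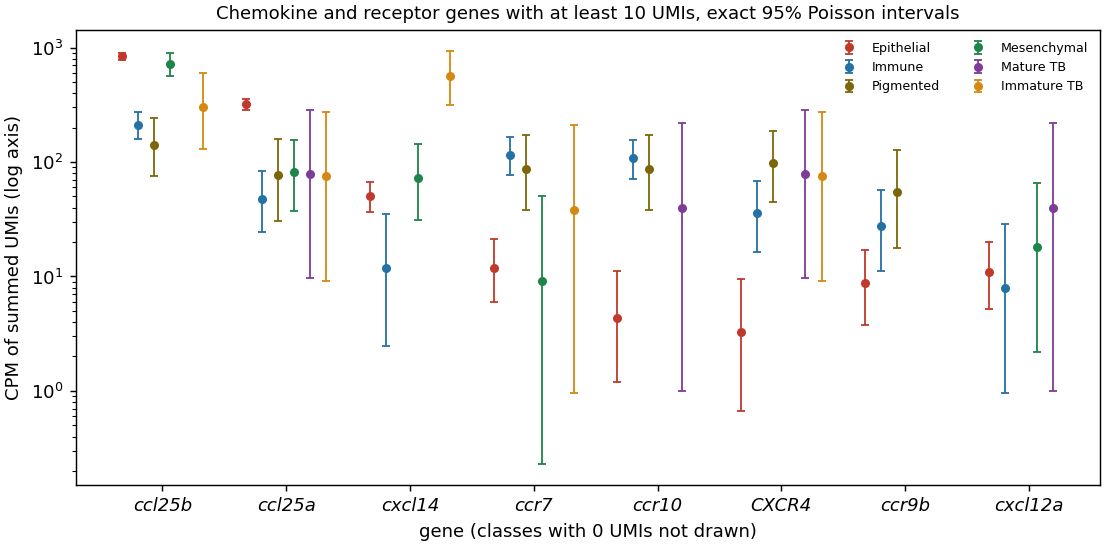
CPM of summed UMIs (log axis) in the 6 classes (colours) for the 8 chemokine and receptor genes with at least 10 UMIs (horizontal axis), with exact 95% Poisson intervals as bars; classes with 0 UMIs are not drawn, and classes are to be compared within a gene. The pair is highest in the Epithelial class, with *ccl25b* near it in the Mesenchymal class, whereas *ccr7*, *ccr10*, *CXCR4* and *ccr9b* are higher in the Immune and Pigmented classes than in the Epithelial class. The Immune and Epithelial intervals of *ccr9b* overlap.

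In the thymus *ccl25* genes stand beside a known set of epithelial genes, and 9 of the 17 features on that list had at least 10 UMIs here. Of the 9, 3 were higher in the Epithelial class by 2-fold or more and 1 lower, beside 12.4% higher and 18.8% lower over all 12230 features, with a median log2 ratio of 0.26 against −0.06 over all features. *foxn1*, which codes for the factor that thymic and skin epithelium need, had 56 UMIs in the Epithelial class and 7 elsewhere, a ratio of 4.39 (2.00–11.4). By layer it was at 47.2 CPM in clusters 0, 1 and 7 and at 99.7 CPM in clusters 3 and 4, a ratio of 0.474 (0.270–0.840). Cluster 4 held 21 of the 24 UMIs behind the latter value at 154 CPM, while cluster 3 was at 28.7 CPM. *tp63* (1 of many), ENSMZEG00005004844, a gene of stratified epithelium, was higher in clusters 0, 1 and 7 with a ratio of 2.24 (1.83–2.77). *kitlga*, a growth factor gene, had a ratio of 0.246 (0.145–0.412), and *eya1* one of 0.937 (0.454–2.08).

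The symbols most like each copy were sought over the 12 clusters among 4024 symbols with at least 50 UMIs, by Pearson r of log2(CPM + 10). For *ccl25a* they were *cldn1*, a tight junction gene, at 0.89, *PLEKHG1* at 0.85, the ubiquitin ligase genes *rnf19b* and *mid1* at 0.84 each, and *pdzd2* at 0.82. For *ccl25b* they were *lrig3* at 0.95, the tetraspanin gene *tspan4a* at 0.94, the importin gene *kpna5* at 0.93, *s100a10a* at 0.93 and *spaca4l* at 0.92. In the Mature TB class, where *ccl25b* had 0 UMIs, *lrig3*, *kpna5*, *s100a10a* and *spaca4l* were at 0 CPM too. *tspan4a* was at 39.7 CPM there, below the floor of 119 CPM. How much of these r values comes from that class of 21 nuclei was not tested. The lists shared 0 symbols, and *ccl25b* was placed 277 among the symbols most like *ccl25a*. *cldn1* was at 315, 376 and 325 CPM in clusters 0, 1 and 7 and at 47.9 and 36.7 CPM in clusters 3 and 4. *spaca4l* was at 517 CPM in the Mesenchymal class, near its 516 CPM in cluster 0, and highest in Immature TB at 642.5 CPM. *ccl25b* instead was lower in Mesenchymal nuclei, at 717 CPM (568–894), than in cluster 0, at 1069.5 CPM (977–1168). These lists changed with the measure, and under Spearman's rho 0 of the 5 for *ccl25a* and 1 of the 5 for *ccl25b* were kept.

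The suffix sets are given side by side. *ccl25a* in clusters 0, 1 and 7 was at 435 CPM in suffix 1 and 400.4 CPM in suffix 2, and in clusters 3 and 4 at 56.0 and 37.4 CPM. *ccl25b* in clusters 0, 1 and 7 was at 1135 CPM (1019–1261) in suffix 1 and 946 CPM (849.6–1050.0) in suffix 2, intervals that just overlap. In cluster 0 alone they did not overlap, at 1249 CPM (1094–1420.0) and 946.5 CPM (835–1069), a difference between sets that are not tied to a jaw.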

How the data were processed

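Single-nucleus RNA was measured in 1 library each of upper and lower jaw oral lamina (10x Chromium V3, NextSeq 500, per the labels' protocols). The authors deposited raw UMI counts for each feature in each barcode; Cell Ranger 3.1.0 is named in the file headers and in the submitters' processing notes. They also deposited metadata with clusters, classes, UMAP axes and the score cyto. The genome build is not given in the sources used here, and no coordinates are printed. Kept nuclei are those with over 300 and under 2500 genes, a rule that matched the authors' mark of kept or not kept in 1381 of 1381 barcodes. In the RefSeq table (Mzebra_GT3a) both symbols occur and 0 genes overlap either.

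From the counts, sums per class or cluster were taken and expressed as CPM. Ratios have exact conditional, CPM exact Poisson and shares Clopper-Pearson intervals. A floor of 3 UMIs bounds a count of 0. With 1 pooled sample there is no replicate, no p and no test. Log2 ratios used a prior of 0.5 UMI and features with at least 10 UMIs in the groups compared, since the prior gives a fold to a feature at 0 in both. Thinning was 1 seeded draw. Members, lists and the naming rule were chosen with earlier results of these data known. The rule named both copies, chemokine features with at least 10 UMIs, the 5 symbols most like each copy and up to 4 members per other list. *ackr4a*, *ackr4b*, *foxn1*, *pax9*, *postnb*, *col1a2*, *col1a1a*, *pleca* and the split by *krt5* UMIs were chosen after values were seen. The ratios by layer and for Mesenchymal nuclei were chosen after seeing the data. Folds were tested on simulated data. Alternatives were TMM factors (edgeR 4.0.16, R 4.3.3), Scrublet at a rate of 0.06 in scanpy 1.11.5 (18 calls, 1.39% of nuclei), depth limits, a total without 86 ribosomal protein features and other settings given in the closing section. Python 3.11.15, numpy 2.4.6, scipy 1.17.1 and pandas 2.3.3 were used.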

Additional observations from a re-analysis of the deposited data

Results flagged for a closer look

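Signal of both copies lay in barcodes outside the comparisons. The 85 barcodes that the authors did not keep held 243 *ccl25a* UMIs and 527 *ccl25b* UMIs, far over the floor of 3. Of these, 240 and 522 lay in the 41 barcodes with 2521 to 13039 genes. In those barcodes *ccl25a* was at 365 CPM (320.0–414) and *ccl25b* at 793 CPM (727–864), beside 229 and 647 CPM in the kept nuclei. A single barcode held up to 54 and 129 UMIs. The 44 barcodes with 300 genes or fewer held 3 and 5.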

How the results depend on the processing

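No paired analysis was possible because the jaws share 1 matrix and no column ties a nucleus to a jaw. The ratio of the Epithelial class to all other nuclei ran from 4.16 to 5.86 for *ccl25a* over 10 alternatives. For *ccl25b* it ran from 2.52 to 3.07, except that with Mesenchymal nuclei left out of the rest, an alternative added after seeing the data, it was 4.45 (3.50–5.73). The ratio of clusters 0, 1 and 7 to clusters 3 and 4 ran from 6.95 to 10.7 for *ccl25a* and from 2.81 to 4.34 for *ccl25b* over 9 alternatives. The Mesenchymal ratio of *ccl25b* ran from 3.01 to 4.17 over 10. Those last 3 ratios and their alternatives were chosen after seeing the data. Thinning to 800 UMIs in place of 500 moved the share of Epithelial nuclei with *ccl25a* from 11.2% to 18.8% and with *ccl25b* from 26.4% to 39.4%, and the share of *ccl25a* nuclei that also held *ccl25b* from 41.0% to 56.8%, since more UMIs per nucleus remain. The other 5 alternatives of each share stayed within its interval. Of the 5 symbols most like *ccl25a*, 3 were kept with log2(CPM + 50) and 3 with a minimum of 20 UMIs, and for *ccl25b* 2 and 5. Depth limits the taste bud classes most, where the floor of 3 UMIs is 119 and 113 CPM.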

Other observations

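*foxn1* and *kitlga*, members of the thymic epithelium list, were highest in cluster 4 among epithelial clusters 0, 1, 3 and 4, and the pair was lowest there. Cluster 7, with 65 nuclei and a high level of the pair, is left out of this order, so no relation to the pair is read from it. Cluster 3, where the pair was also low, did not share the high *foxn1* level of cluster 4. Cluster 4 held 21 of the 56 Epithelial *foxn1* UMIs at 154 CPM, against 43.4 CPM in cluster 0 and 41.0 CPM in cluster 1. It held 28 of the 66 Epithelial *kitlga* UMIs at 205 CPM, against 49.9 CPM in cluster 0 and 27.4 CPM in cluster 1. *pax9*, another member, had 0 UMIs in the Epithelial class, 13 in the Mesenchymal class and 7 in Mature TB. *foxn1* and *pax9* were picked after their values were seen.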
